A study of Mus musculus with 8 samples.

Results

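The transcripts of 10 enzymes that make serine and carry its one-carbon units on folate were followed in livers that lack pyruvate carboxylase. They were chosen by name: Phgdh, Psat1 and Psph of serine synthesis, Shmt1, Mthfd1 and Aldh1l1 of the cytosolic folate pathway, and Shmt2, Mthfd2, Mthfd1l and Aldh1l2 of the mitochondrial folate pathway. All 10 were found among the 35275 genes of the count table, and all 10 passed the filter on low counts, which left 13168 genes for testing. Aldh1l2 passed it only through its counts in the knockout livers. Mthfd2, with 6 raw reads in control replicate 4, would also not have passed on its control counts alone. Liver RNA was sequenced from 4 mice of each genotype, Pcx L-/- and Pcx f/f, with 1 library per mouse. The control group, called WT in the sample labels, carried the floxed Pcx alleles without Cre. In Pcx L-/- mice Cre was driven by the albumin promoter, so the deletion is that of hepatocytes and the other cells of the liver keep the gene. All mice were C57BL/6 males, 9 weeks old and fasted for 24 h, so the fed state is not part of the comparison.

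Serine is built from the glycolytic intermediate 3-phosphoglycerate in 3 steps, by Phgdh, Psat1 and Psph in that order. Shmt1 in the cytosol and Shmt2 in mitochondria split serine into glycine and a one-carbon unit bound to tetrahydrofolate, and the Mthfd and Aldh1l enzymes of each compartment then interconvert, release or oxidise that unit. Several genes of the pathway are known targets of the transcription factor Atf4, and the adult liver is known for high levels of the cytosolic folate enzymes.

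Reads counted on genes came to between 12016242 and 20023108 per library. Pcx, the deleted gene, lay between 555.7 and 757.7 normalized counts in the 4 Pcx L-/- livers and between 14371 and 22059 in the 4 controls, so each library matched its label. A normalized count here is the number of reads after correction for depth and composition by TMM. Of 8 hepatocyte markers (Alb, Apoa1, Ttr, Tat, Cps1, Serpina1a, Fah and Hpd), none was at 0 in all libraries, 3 were lower in Pcx L-/- liver (Apoa1, Serpina1a and Hpd) and the other 5 were not called by the test described below. At an unadjusted p under 0.05 it was 5 that were lower, also 5 by DESeq2, and Alb lay wholly below the controls (log2 fold change -0.63, adjusted p = 0.0532 from edgeR). Their summed normalized count, most of it Alb, ranged from 955460 to 1467108 in Pcx L-/- and from 1685979 to 2065088 in control liver. Of the 18 markers of macrophages, endothelial and stellate cells, edgeR called 0, with 2 lower at an unadjusted p under 0.05, and DESeq2 called 0. Of 9 red blood cell and lymphocyte markers tested, edgeR and DESeq2 called 0, with 0 at an unadjusted p under 0.05, and 1 of 5 cholangiocyte and 1 of 6 proliferation markers were lower. Among all 13168 genes tested, edgeR called 13.5% lower and 14.1% higher, and DESeq2 called 2075 lower and 1949 higher. In tissue RNA, fewer cells of a type and less RNA per cell cannot be told apart. Pcx L-/- replicate 1 stood apart from the other knockout livers in several genes below, and it also had a summed count of 69307 for 5 red blood cell markers, against 4747 to 16715 in the other 7 libraries. Its summed count for the 6 stellate markers was the lowest, at 2449 against 3817 to 6142 in the other 7 libraries.

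In the comparison of genotypes, 3 of the 10 enzymes were induced (Psat1, Aldh1l2 and Mthfd2), 4 were suppressed (Aldh1l1, Shmt1, Mthfd1 and Shmt2), and Phgdh, Psph and Mthfd1l did not pass the threshold. The threshold was an adjusted p under 0.05 from the quasi-likelihood test of edgeR, with Benjamini-Hochberg adjustment over all genes tested. Among all 13168 genes, 14.1% were higher and 13.5% were lower by this test, 27.6% in all. The median log2 fold change of the 10 enzymes was 0.07, beside -0.01 for all genes tested, so the enzymes did not shift one way as a group. The values of the 4 Pcx L-/- livers lay wholly above those of the 4 controls for Psat1, Mthfd2 and Aldh1l2, a pattern found in 15.1% of all genes. For none of the 4 suppressed enzymes did they lie wholly below, whereas 12.5% of all genes showed that. In each of those 4 it was Pcx L-/- replicate 1 that reached into the control range.

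**Figure D1:**
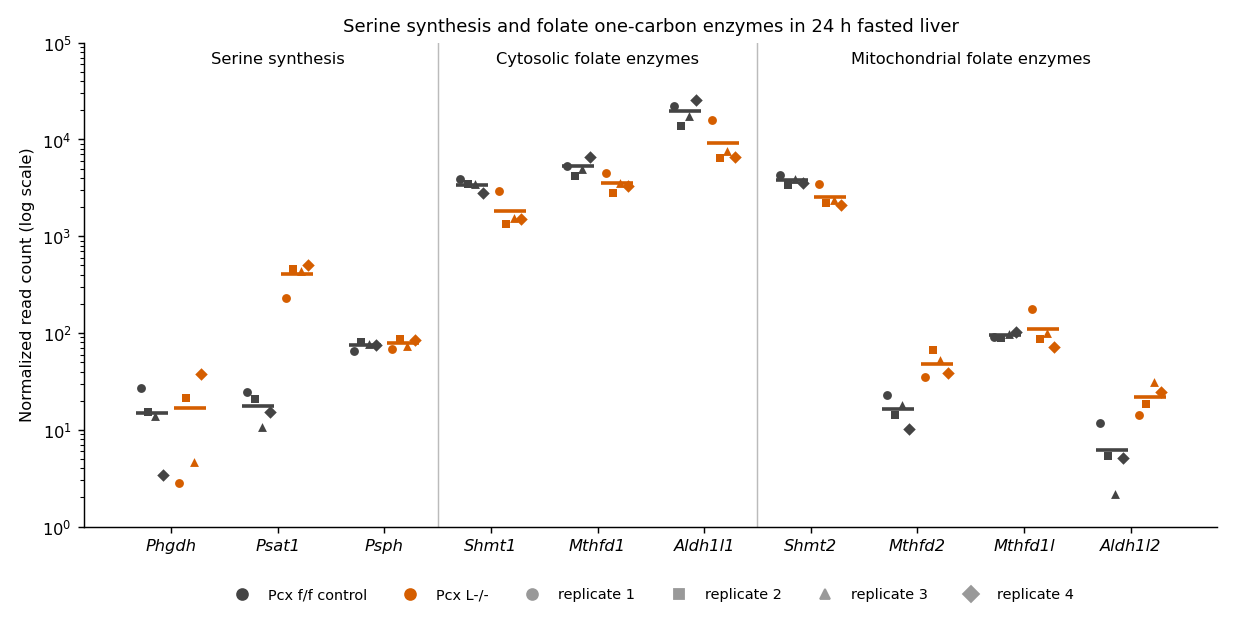
Normalized read count of each enzyme transcript (log scale) in every mouse, with controls in grey and Pcx L-/- livers in orange. Marker shape gives the replicate number within its genotype, and these numbers showed no pairing of mice across genotypes. A bar marks the mean of 4 mice. The 4 orange points lie above all grey points for Psat1, Mthfd2 and Aldh1l2, while the suppressed Shmt1, Mthfd1, Aldh1l1 and Shmt2 each have the orange circle, replicate 1, within the grey range.

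**Figure D2:**
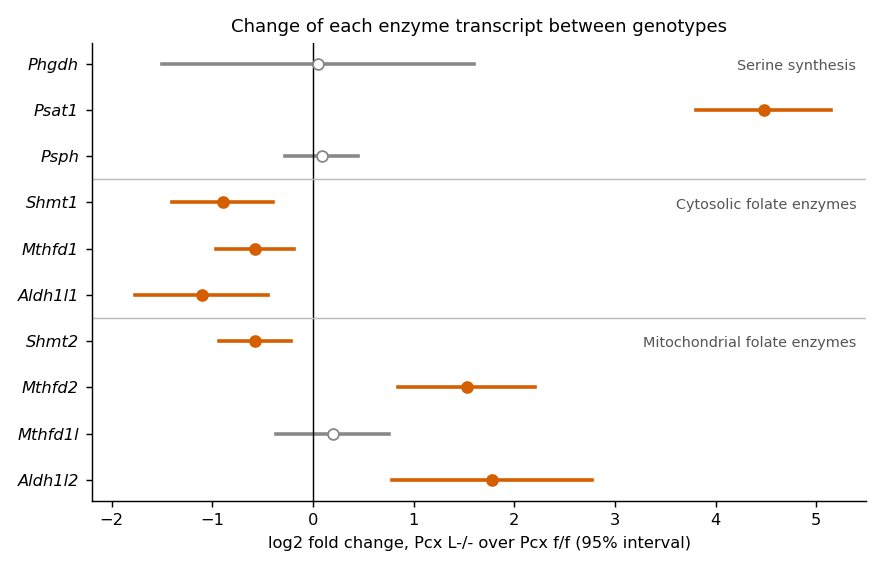
The log2 fold change of each enzyme transcript, Pcx L-/- over control, from edgeR (points) with its 95% interval (lines), filled where the adjusted p was under 0.05. Psat1 stands at 4.48 between Phgdh and Psph, whose intervals include 0, and the mitochondrial group holds enzymes on both sides of 0.

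Psat1, which encodes phosphoserine aminotransferase 1, the second enzyme of serine synthesis (ENSMUSG00000024640, chromosome 19 from 15904678 to 15947337, minus strand, GRCm38), had the largest change of the 10. Control livers held 24.6, 20.6, 10.8 and 15.3 normalized counts, and Pcx L-/- livers held 230.2, 454.2, 437.8 and 510.0. The lowest knockout liver was thus well above the highest control. Against the control mean, the 4 knockout livers were 12.9-, 25.5-, 24.6- and 28.7-fold higher, and the smallest of these came from replicate 1. Its log2 fold change was 4.48 (95% interval 3.81 to 5.15, adjusted p = 2.93e-05 from edgeR). In controls the gene rested on only 9 to 27 raw reads per library, against 244 to 595 in the knockout.

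The enzymes on either side of Psat1 did not share its induction. Phgdh, 3-phosphoglycerate dehydrogenase, which commits carbon to serine (chromosome 3 from 98313170 to 98339990, minus strand), had 27.3, 15.2, 14.0 and 3.39 normalized counts in controls and 2.83, 21.4, 4.67 and 37.7 in Pcx L-/- livers. The genotypes overlapped over nearly their whole range, and the highest knockout liver was 13.3-fold above the lowest. The log2 fold change of 0.05 had a 95% interval of -1.5 to 1.6 (adjusted p = 0.967 from edgeR), on 2 to 38 raw reads per library. This interval does not exclude a change of 2-fold in either direction. A processed pseudogene of Phgdh is annotated as Phgdh-ps1, and whether it shares reads with Phgdh was not tested.

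Psph, phosphoserine phosphatase, which releases free serine (chromosome 5 from 129765558 to 129787449, minus strand), varied little within either genotype. Its normalized counts were 65.5, 81.3, 76.3 and 74.7 in controls and 68.9, 87.8, 73.9 and 85.3 in Pcx L-/- livers. The genotypes overlapped, and the log2 fold change was 0.09 with a 95% interval of -0.27 to 0.45 (adjusted p = 0.734 from edgeR). The interval of Psat1 lies above those of Phgdh and Psph, although the difference between the genes itself was not tested. Exons of Psph share 452 bases with Cct6a on the opposite strand, which was not called (log2 fold change 0.11, adjusted p = 0.503 from edgeR), and whether the counting used strand is not stated.

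Because the changes of the enzymes differed, the sequence ahead of the transcription start is shown for the induced Psat1 and Mthfd2 and for the 2 most suppressed enzymes, Aldh1l1 and Shmt1. The sequences come from RefSeq on GRCm38.p6, where 9 of the 10 enzymes had an entry, and run 5′ to 3′ on the strand of the gene. Bases that an annotated exon covers are left out. Capitals mark the letters CCAAT, or ATTGG on the other strand, the box read by NF-Y.
Psat1, chr19:15925060-15925309, minus strand: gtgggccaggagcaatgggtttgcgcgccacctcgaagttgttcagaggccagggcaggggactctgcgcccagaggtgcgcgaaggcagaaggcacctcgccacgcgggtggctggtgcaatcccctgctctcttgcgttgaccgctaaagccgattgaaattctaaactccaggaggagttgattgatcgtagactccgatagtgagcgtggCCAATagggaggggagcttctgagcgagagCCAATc
Mthfd2, chr6:83317607-83317854, minus strand: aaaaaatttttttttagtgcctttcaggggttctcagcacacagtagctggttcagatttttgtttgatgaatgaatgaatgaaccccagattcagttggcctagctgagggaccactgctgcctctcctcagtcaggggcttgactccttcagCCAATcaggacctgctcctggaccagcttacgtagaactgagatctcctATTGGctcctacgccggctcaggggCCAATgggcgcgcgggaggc
Aldh1l1, chr6:90550543-90550788, plus strand: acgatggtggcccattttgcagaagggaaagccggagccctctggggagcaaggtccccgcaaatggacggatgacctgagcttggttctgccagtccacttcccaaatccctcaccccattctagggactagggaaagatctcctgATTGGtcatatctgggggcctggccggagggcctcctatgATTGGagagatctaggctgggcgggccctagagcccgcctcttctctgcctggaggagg
Shmt1, chr11:60811266-60811466, minus strand: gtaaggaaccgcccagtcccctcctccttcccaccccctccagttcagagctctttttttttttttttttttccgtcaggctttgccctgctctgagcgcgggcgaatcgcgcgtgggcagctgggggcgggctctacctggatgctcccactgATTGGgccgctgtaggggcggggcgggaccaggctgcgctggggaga

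All 4 windows lie inside the annotated extent of their own genes, whose annotation begins further upstream than the RefSeq start used here. In the 250 bases before the start, CCAAT in either orientation was present 2 times for Psat1, 3 for Mthfd2, 2 for Aldh1l1 and 1 for Shmt1. Psat1 has another RefSeq start downstream, whose window held no copy. The letters were found in 33.8% of 32851 mouse promoters of that length, and 3 or more copies in 2.79%. They were thus present in windows of induced and of suppressed enzymes. TGATGNAA, a core of the amino acid response element bound by Atf4 with its partners, was found in 3.45% of promoters and in no window of the 9 enzymes with an entry. CACGTG, an E-box, was in 6.02% of promoters and in none of these windows, and TGACGT, a cAMP response half-site, was in 6.47% and among the enzymes only in that of Mthfd1l. Both strands were searched, no match overlapped another, and the motifs were picked with the values known, so these letters are a description of the windows only.

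Among the folate enzymes of the cytosol, all 3 were suppressed. Aldh1l1, 10-formyltetrahydrofolate dehydrogenase, which oxidises the one-carbon unit to carbon dioxide (ENSMUSG00000030088, chromosome 6 from 90486427 to 90600203, plus strand), fell most. Controls held 22142, 13906, 17370 and 25394 normalized counts, and Pcx L-/- livers held 15859, 6492, 7596 and 6627. Replicates 2 to 4 were below every control, while replicate 1 lay between the controls. The log2 fold change was -1.11 (95% interval -1.76 to -0.45, adjusted p = 0.0191 from edgeR), and the knockout mean was 46.4% of the control mean. Without replicate 1 it was -1.51 (adjusted p = 0.000185 from edgeR), and without replicate 2, 3 or 4 the call was lost (adjusted p = 0.0592, 0.0594 and 0.0669 from edgeR). Its exons share 499 bases with the antisense gene Gm15756, which had a log2 fold change of -1.05 on few reads (adjusted p = 0.0629 from edgeR), and the part of this overlap in the far higher count of Aldh1l1 was not tested.

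Shmt1, the cytosolic serine hydroxymethyltransferase (ENSMUSG00000020534, chromosome 11 from 60788104 to 60811718, minus strand), had 3895, 3485, 3448 and 2822 normalized counts in controls. In Pcx L-/- livers it had 2925, 1336, 1549 and 1513. The pattern was that of Aldh1l1, with replicate 1 above the lowest control and the other 3 livers at about the same low level. On the log2 scale the change was -0.90 (95% interval -1.40 to -0.40, adjusted p = 0.0145 from edgeR), and the call was lost without Pcx L-/- replicate 4 (adjusted p = 0.0531 from edgeR).

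Mthfd1, the trifunctional cytosolic enzyme that interconverts the folate-bound units (ENSMUSG00000021048, chromosome 12 from 76255298 to 76319803, plus strand), had 5294, 4197, 4913 and 6665 normalized counts in controls and 4476, 2800.5, 3540 and 3314 in Pcx L-/- livers. Replicate 1 again lay among the controls. The fold was smaller, with a log2 fold change of -0.58 (95% interval -0.96 to -0.19, adjusted p = 0.0321 from edgeR). This call was lost without control replicate 1, 3 or 4 and without Pcx L-/- replicate 2, 3 or 4 (adjusted p from 0.0576 to 0.0966, edgeR), and also with scaling by library size only (-0.29, adjusted p = 0.109 from edgeR).

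The hepatocyte markers moved in the same direction as these cytosolic enzymes. The median log2 fold change of the 8 hepatocyte markers was -0.61, and in replicate 1 their sum was also the highest of the knockout livers. Their part in the lower counts of the folate enzymes was not tested. Of the 6 periportal markers 4 were lower, beside 13.5% of all genes, and Hal and Hsd17b13 were not called. Hsd17b13 went the other way and lay wholly above the controls (log2 fold change 0.39, adjusted p = 0.0552 from edgeR). By DESeq2, 1 periportal marker was higher. Of the 7 pericentral markers 1 was lower (Cyp2e1) and 1 higher (Axin2), beside 13.5% and 14.1% of all genes. Glul, Cyp1a2, Oat, Slc1a2 and Lgr5 were not called. Summed normalized counts of the periportal list were 80067 to 129665 in Pcx L-/- against 120886 to 173007 in control liver. Those of the pericentral list were 100044 to 210658 against 218339 to 249453. Most of the periportal sum was Pck1 and most of the pericentral sum Cyp2e1, so the sums mainly follow these genes.

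The mitochondrial enzymes did not move together. Shmt2, the mitochondrial serine hydroxymethyltransferase and the most abundant of this group (ENSMUSG00000025403, chromosome 10 from 127517123 to 127522444, minus strand), was suppressed. Controls held 4291, 3385, 3917 and 3533 normalized counts, and Pcx L-/- livers held 3454, 2227, 2359 and 2124. Replicate 1 lay within the control range and the other 3 lay below it. The log2 fold change was -0.57 (95% interval -0.93 to -0.21, adjusted p = 0.0243 from edgeR). Leaving out a control (replicate 1 or 3) or a knockout liver (2, 3 or 4) ended the call (adjusted p from 0.0618 to 0.0851, edgeR), as did scaling by library size only (-0.31, adjusted p = 0.0976 from edgeR).

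Mthfd2, the bifunctional mitochondrial dehydrogenase and cyclohydrolase that is typically low in adult tissue (ENSMUSG00000005667, chromosome 6 from 83305691 to 83325908, minus strand), was induced. Its normalized counts were 22.8, 14.1, 18.3 and 10.2 in controls and 34.9, 67.2, 52.9 and 38.7 in Pcx L-/- livers. Every knockout liver exceeded every control, with replicate 1 the closest. This was a log2 fold change of 1.53 (95% interval 0.85 to 2.21, adjusted p = 0.00542 from edgeR), on 6 to 25 raw reads per control library and 37 to 88 per knockout library.

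Aldh1l2, the mitochondrial counterpart of Aldh1l1 (ENSMUSG00000020256, chromosome 10 from 83487450 to 83534140, minus strand), was the scarcest of the 10. Normalized counts were 11.8, 5.42, 2.15 and 5.09 in controls and 14.2, 18.3, 31.1 and 24.8 in Pcx L-/- livers. The genotypes did not overlap, but only narrowly, since control replicate 1 nearly reached knockout replicate 1. The log2 fold change was 1.78 (95% interval 0.79 to 2.77, adjusted p = 0.0146 from edgeR) on 2 to 13 raw reads per control library and 15 to 40 per knockout library, and it was 2.39 without control replicate 1 (adjusted p = 0.0104 from edgeR). Exons of Aldh1l2 share 1056 of their 7503 bases with D10Wsu102e on the opposite strand. That gene had 225 to 290 normalized counts in controls and 343 to 391 in Pcx L-/- livers and was also higher (log2 fold change 0.51, adjusted p = 0.00814 from edgeR), and its part in the reads given to Aldh1l2 was not tested.

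Mthfd1l, the mitochondrial synthetase that releases formate (ENSMUSG00000040675, chromosome 10 from 3973118 to 4167081, plus strand), was not called. The controls were tightly grouped at 91.0, 88.8, 98.9 and 103.5 normalized counts. The knockout livers spread from 72.4 to 177.4, with replicate 1 at 177.4 and replicates 2, 3 and 4 at 86.3, 101.1 and 72.4. Its log2 fold change was 0.19 (95% interval -0.36 to 0.75, adjusted p = 0.613 from edgeR), and without replicate 1 it was -0.14 (adjusted p = 0.588 from edgeR), so its direction rested on that liver.

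Mitochondrial and cytosolic counterparts were next set against each other within each mouse, since in such a ratio the scaling of libraries cancels, apart from a pseudocount of 0.5. The log2 ratio of Mthfd2 to Mthfd1 was -7.83, -8.17, -8.03 and -9.29 in controls and -6.98, -5.37, -6.05 and -6.40 in Pcx L-/- livers. The genotypes did not overlap, and the mean difference was 2.13. The log2 ratio of Aldh1l2 to Aldh1l1 was -10.81, -11.20, -12.68 and -12.15 in controls and -10.08, -8.43, -7.91 and -8.03 in Pcx L-/- livers, a mean difference of 3.10 with no overlap. For Mthfd1l to Mthfd1 it was -5.85, -5.55, -5.63 and -6.00 in controls and -4.65, -5.01, -5.12 and -5.51 in Pcx L-/- livers, again without overlap and with a mean difference of 0.69. By exact two-sided permutation tests over the 4 ratios examined, these 3 had p = 0.0286, the smallest that 4 mice against 4 can give, and an adjusted p of 0.0381. With FPKM + 0.1 in place of normalized counts the difference for Aldh1l2 to Aldh1l1 was smaller, at 2.03, with the same p.

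The ratio of Shmt2 to Shmt1 behaved differently. Its log2 values were 0.14, -0.04, 0.18 and 0.32 in controls and 0.24, 0.74, 0.61 and 0.49 in Pcx L-/- livers, which overlapped through replicate 1. The mean difference was 0.37, and the exact permutation test gave p = 0.0571, also after adjustment. Unequal change of the mitochondrial and cytosolic enzyme was therefore seen in the Mthfd and Aldh1l pairs, and for the Shmt pair it did not pass the test. A ratio alone does not say which of the 2 transcripts moved, and by the values above Mthfd1 and Aldh1l1 fell while Mthfd2 and Aldh1l2 rose. The calls of Mthfd1 and Aldh1l1 were lost in 9 and 3 of 17 alternatives. Mthfd1l itself was not called (log2 fold change 0.19, adjusted p = 0.613 from edgeR). In its ratio to Mthfd1 the genotypes were only narrowly apart, at -5.51 in the lowest knockout liver and -5.55 in the highest control.

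**Figure D3:**
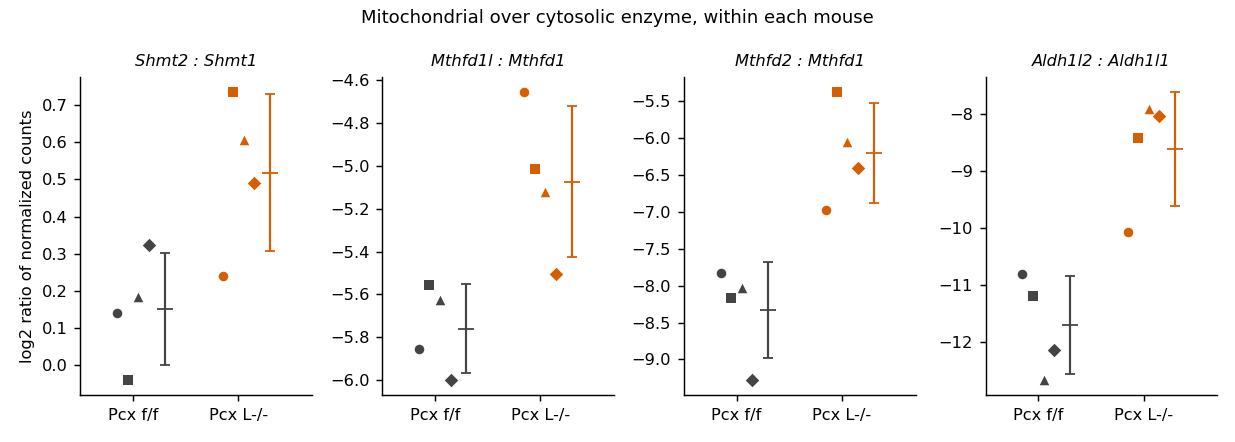
Log2 ratio of the normalized counts of a mitochondrial enzyme to its cytosolic counterpart in each mouse, with controls in grey, Pcx L-/- livers in orange, marker shape giving the replicate number and the bars showing the mean and SD of 4 mice. Each panel has its own vertical scale, which does not start at 0, and the genotypes overlap for Shmt2 to Shmt1 and in no other panel.

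Per length of transcript, the cytosolic enzymes and Shmt2 remained the main transcripts of the pathway in both genotypes. On the FPKM scale of the deposited table, which is scaled by library size only, control levels were 249.9 ± 54.4 for Aldh1l1, 87.7 ± 11.9 for Shmt2, 84.0 ± 11.9 for Mthfd1 and 64.1 ± 11.2 for Shmt1 (SD, n = 4). Each of the other 6 was at 1.38 FPKM or less, in the order Psph, Mthfd1l, Phgdh, Mthfd2, Psat1 and Aldh1l2. Neighbours in this order overlapped between mice, other than Aldh1l1 and Shmt2, Shmt1 and Psph, Mthfd1l and Phgdh, and Psat1 and Aldh1l2.

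In Pcx L-/- liver the first 4 kept their order, at 138.3 ± 52.9, 70.7 ± 10.4, 68.4 ± 8.25 and 40.7 ± 12 FPKM (SD, n = 4). Psat1 moved from place 9 to place 5, from 0.365 ± 0.134 to 10.3 ± 3.61 FPKM (SD, n = 4), and its values overlapped those of no neighbour. Aldh1l2 stayed last, at 0.242 ± 0.0927 FPKM, although its values overlapped those of Phgdh. Even after their induction, Mthfd2 stood at 2.33% ± 1.10 of Mthfd1 and Aldh1l2 at 0.200% ± 0.0994 of Aldh1l1 on this scale (SD, n = 4), compared with 0.514% ± 0.191 and 0.0216% ± 0.0129 in controls. The summed FPKM of the 3 serine synthesis enzymes ranged from 1.65 to 2.56 in controls and from 6.47 to 16.4 in Pcx L-/- livers, and most of the rise was Psat1. That of the 3 cytosolic folate enzymes ranged from 322 to 453 and from 196 to 352, and that of the 4 mitochondrial ones from 76.8 to 104 and from 64.5 to 89.3, so that both sums overlapped between genotypes.

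Pcx L-/- replicate 1 was the knockout liver nearest to the control mean for 7 of the 7 enzymes that were called, in both directions. It is also the only knockout mouse numbered in the 500s by the labels, where the other 3 are in the 800s and the controls are 2 in each series. With the series of mouse numbers as a term in the edgeR fit, all 7 calls remained, beside 26.8% of all genes. Among the mice of the 800s alone, 2 controls against 3 knockouts, which was chosen after seeing the data, the 7 calls also remained, beside 29.8% of all genes, and log2 fold changes were larger in size, at 5.20 for Psat1, 1.84 for Mthfd2, 2.85 for Aldh1l2, -1.63 for Aldh1l1, -1.10 for Shmt1, -0.85 for Mthfd1 and -0.74 for Shmt2 (adjusted p of 0.00653 or less from edgeR). The 500s hold 1 knockout mouse, so there was no test within them. What sets this liver apart was not tested.

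The call of the induced enzymes did not rest on any 1 library, since Psat1, Mthfd2 and Aldh1l2 passed the threshold with each mouse left out in turn, Aldh1l2 with an adjusted p of up to 0.0491 (edgeR). The size of the change was smaller on the log2(FPKM + 1) scale, which compresses low values, at 2.99 for Psat1, 0.81 for Mthfd2 and 0.23 for Aldh1l2, and on the log2(FPKM + 0.1) scale it was 1.13 for Aldh1l2 (adjusted p of 0.0228 or less from limma). The number of suppressed enzymes did. It was 4 in full and 0 without Pcx L-/- replicate 4, where 7.11% of all genes were lower. It was 1 without replicate 2 or 3 (7.86% and 8.28% of all genes), 2 without control replicate 1 or 3 (9.91% and 9.19%), and 3 without control replicate 4 (13.0%). Scaling by library size only also gave 2 suppressed enzymes, Aldh1l1 and Shmt1, where 6.61% of all genes were lower, and moved the median of all genes from -0.01 to 0.28 on the log2 scale. With that scaling 81.8% of the calls over all genes were higher, compared with 51.1%.

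To place these enzymes in their pathway, 61 other genes of folate, serine, glycine and methyl metabolism were examined, of which 59 passed the filter. Of these 59, 4 were higher and 13 lower, or 6.78% and 22%, beside the 14.1% and 13.5% of all genes, and their median log2 fold change was -0.18. Each of the 5 lists held at least 2 lower genes. The count of lower genes was 23 without Pcx L-/- replicate 1, where 2370 of all 13330 genes tested were lower. It was 6 without replicate 2 (7.86% of all genes) and 7 without replicate 3 (8.28%), replicate 4 (7.11%) or control replicate 3 (9.19%). Without control replicate 1 it was 8 (9.91%). With scaling by library size only, 13 were higher and 8 lower, beside 3915 and 870 of all 13168 genes.

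**Figure D4:**
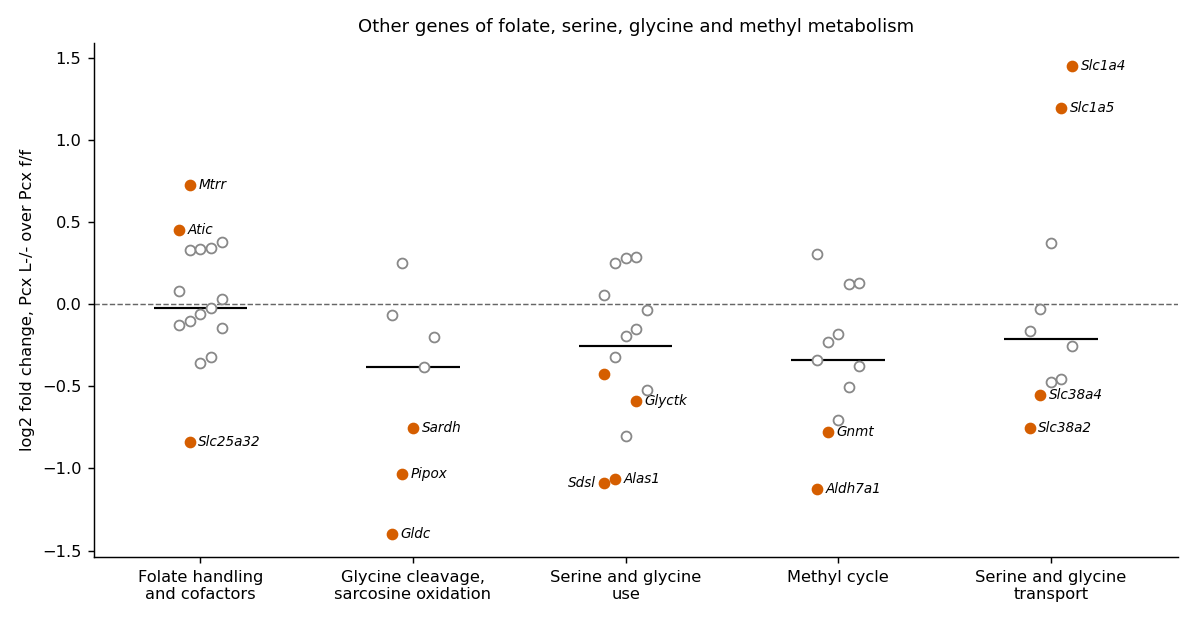
Log2 fold change, Pcx L-/- over control, of 58 of the 59 other pathway genes tested (edgeR), in 5 lists, filled where the adjusted p was under 0.05 and with a black bar at the median of all genes tested in each list. Induced genes appear in the folate and transport lists, and the glycine cleavage, serine and glycine use and methyl cycle lists hold suppressed genes and no induced one.

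Of the 17 genes tested for folate handling and cofactors, 2 were higher, 2 lower and 13 not called. Slc25a32, a carrier of folate into mitochondria, was lower without overlap between genotypes (log2 fold change -0.84, adjusted p = 0.00668 from edgeR). Mtrr, which reactivates methionine synthase, was higher (0.72, adjusted p = 0.00806 from edgeR), as was Atic, which uses formyl-folate for purines (0.45, adjusted p = 0.0236 from edgeR). Mthfd2l, the isozyme of Mthfd2, was not called (0.33, adjusted p = 0.582 from edgeR).

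Of the 7 genes for glycine cleavage and for oxidation of dimethylglycine and sarcosine, 3 were lower and none higher. Gldc, the decarboxylase of the mitochondrial glycine cleavage system, fell from 5083, 3620, 5197 and 6320.1 normalized counts to 3510.2, 1379, 1443 and 1335. Its knockout livers were all below the controls, with replicate 1 just under the lowest of them, and the log2 fold change was -1.40 (adjusted p = 0.00788 from edgeR). Pipox, which oxidises pipecolate and sarcosine in peroxisomes (-1.03, adjusted p = 0.0116 from edgeR), and Sardh, the mitochondrial sarcosine dehydrogenase (-0.76, adjusted p = 0.0331 from edgeR), fell with overlap between genotypes.

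Among 14 genes for use and breakdown of serine and glycine, 4 were lower and none higher. Sdsl, a serine dehydratase-like enzyme, fell without overlap (-1.09, adjusted p = 0.00121 from edgeR). Alas1, which takes glycine into heme synthesis (-1.06, adjusted p = 0.043 from edgeR), and Glyctk, glycerate kinase (-0.59, adjusted p = 0.0158 from edgeR), fell with overlap. Sds, serine dehydratase, had -0.81 and was not called (adjusted p = 0.0579 from edgeR). Of the 11 genes of the methyl cycle 2 were lower, Aldh7a1, which oxidises betaine aldehyde (-1.13, adjusted p = 0.00373 from edgeR), and Gnmt, which passes the methyl group of S-adenosylmethionine to glycine (-0.78, adjusted p = 0.0357 from edgeR). Over these 32 genes of glycine cleavage, serine and glycine use and the methyl cycle, edgeR called 0 higher, beside 14.1% of all genes. At an unadjusted p under 0.05 from edgeR, 3 were higher. DESeq2 called 0 higher and 14 lower, beside 1949 and 2075 of all 13168 genes.

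Among 10 transporters of serine and glycine, 2 were higher and 2 lower. Slc1a4, a neutral amino acid exchanger that carries serine, rose from 55.5, 56.3, 36.5 and 56.0 normalized counts to 162.3, 151.1, 96.4 and 147.8, and Slc1a5, its relative that also carries glutamine, rose from between 45.1 and 66.1 to between 91.5 and 142.0. Neither overlapped between genotypes, and the log2 fold changes were 1.45 and 1.19 (adjusted p = 0.0013 and 0.00216 from edgeR). Both started far below Slc38a2 and Slc38a4, sodium-coupled neutral amino acid transporters, which were lower (-0.75 and -0.55, adjusted p = 0.0419 and 0.0323 from edgeR). Of the 15 genes described here from the 5 lists by rule, 8 kept their call in all 17 alternatives, and Atic, Sardh, Alas1, Glyctk, Gnmt, Slc38a2 and Slc38a4 each lost it when 1 of several mice was left out, among them Pcx L-/- replicate 2 in every case (adjusted p of up to 0.121 from edgeR). Sardh, Glyctk, Slc38a2 and Slc38a4 also lost it with scaling by library size only and with limma on FPKM, Gnmt with limma on FPKM, Alas1 with DESeq2, Slc38a2 and Slc38a4 with a replicate block, and Atic among the mice of the 800s alone. Over all alternatives the adjusted p of these 7 genes reached 0.146, for Slc38a2.

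Genes whose pattern over the 8 libraries was most like that of a called enzyme were found by distance. It was the root mean square distance between log2 profiles, each centred on its own control mean. Since such a profile keeps the difference between genotypes, a gene with a like fold change comes near by construction. For Psat1 the nearest was Trib3, a pseudokinase known as an Atf4 target, at a distance of 0.38, followed by Gm26578 and Coro6. Trib3 lay between 267.6 and 278.3 normalized counts in controls and between 3173 and 6397 in Pcx L-/- livers, with replicate 1 again the lowest. Atf4 itself was at 1005.0, 1016.4, 1068.4 and 619.4 in controls and at 1104.0, 2137.2, 1499.3 and 2125.4 in Pcx L-/- livers, a log2 fold change of 0.89 (adjusted p = 0.0147 from edgeR) that missed the threshold without Pcx L-/- replicate 4 (adjusted p = 0.0518).

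For Mthfd2, Zfp580 and Ppan were among the 3 nearest, both at a distance of 0.25, and for Aldh1l2 the nearest were Gm49340, Slc7a1 and Anxa8, with 0.33 to 0.38. The suppressed enzymes had nearer neighbours, at distances of 0.07 to 0.16, but they also had higher counts and smaller changes than the induced ones. Those were Fbp1, Ugt2b5 and Mmp19 for Shmt1, Slc25a42, Aldh2 and Ppm1m for Shmt2, Faah, Cpeb3 and Usp4 for Mthfd1, and Gpat4, St3gal1 and Nnmt for Aldh1l1. None of these genes was among the nearest of more than 1 enzyme.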

How the data were processed

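Liver RNA of 4 Pcx L-/- and 4 control mice was analysed from 2 tables, which hold 0 columns of other samples. The authors deposited raw read counts per Ensembl gene on mm10 (GRCm38) and FPKM values. The submitters' processing notes name STAR 2.5, HTSeq 0.6.1 and DESeq2, with annotation release and strand setting not given in the sources used here. FPKM as deposited equal the counts divided by 1 length per gene and by library total. Symbols came from GENCODE M21, which named 97.8% of identifiers. The 10 enzymes and all lists and motifs were chosen with earlier results of these data known.

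Counts were compared with edgeR 4.0.16 (R 4.3.3), using TMM factors, filterByExpr (minimum count 10, minimum total 15), genotype as the only term, the quasi-likelihood F test and Benjamini-Hochberg adjustment over all 13168 genes tested. Normalized counts are reads over effective library size, times the geometric mean size. Intervals (95%) were taken from the F statistic with its degrees of freedom and are approximate. Ratios within mice (pseudocount 0.5) were compared by exact permutation. Low counts limit Phgdh, Psat1, Mthfd2 and Aldh1l2. Named genes are the 10 enzymes, Pcx, Atf4 and Trib3, up to 3 called genes in each direction with the largest change per list, and the 3 tested genes nearest in profile to each called enzyme (prior count 2). Other genes named, among them Sds, Mthfd2l, single markers and overlapping genes, fall outside this rule, and 2 genes it names are not reported here. Alternatives were other scaling, no filter, DESeq2 1.42.0, limma 3.58.1 on log2(FPKM + 1) and log2(FPKM + 0.1), each mouse left out, mouse number series as a covariate, a replicate block and, added after seeing the data, mice of the 800s only. On counts simulated from control means, without a shift in composition, edgeR recovered 76% of 2-fold and 95.6% of 4-fold changes, with 16 false calls. DESeq2 recovered 81.2% and 96.7%, with 32 false calls among 12798 genes tested. With limma it was 74% to 76% and 93.4%, with 13 to 15 false calls. The scaling for composition was not tested by these simulated counts. Replicate pairs within a genotype correlated across genes at 0.976 to 0.993 (Spearman).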

Additional observations from a re-analysis of the deposited data

Results flagged for a closer look

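Within a genotype, a value was singled out when its gap to the nearest other mouse was a large part of the range of the 4 mice, as judged by the 95% critical value of Dixon's ratio. Of 56 groups examined, 9 passed. These groups are genes measured in the same 8 mice, and many were picked as called genes. The number that passed can therefore not be set against a rate for independent groups. In 6 of the 9 the mouse was Pcx L-/- replicate 1, each time above the other knockout livers and towards the controls. The ratios were 0.866 for Shmt1 (2925 normalized counts against 1336 to 1549 in the other 3), 0.882 for Aldh1l1 (15859 against 6492 to 7596) and 0.95 for Gldc (3510.2 against 1335 to 1443). They were 0.856 for Alas1 (15947 against 4855 to 6450), 0.859 for Aldh7a1 (7156 against 3688 to 4176) and 0.902 for Gnmt (36031 against 16723 to 18615). The other 3 lay among controls, with 0.851 for Atic in replicate 4 (580.4 against 454.7 to 473.4), 0.959 for Slc1a4 in replicate 3 (36.5 against 55.5 to 56.3) and 0.859 for Atf4 in replicate 4 (619.4 against 1005.0 to 1068.4).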

How the results depend on the processing

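Induction of Psat1, Mthfd2 and Aldh1l2 held in all 17 alternatives, with log2 fold changes of 2.99 to 5.20, 0.81 to 1.84 and 0.23 to 2.85, each lowest with limma on log2(FPKM + 1) and highest in the mice of the 800s only. All alternatives drew on the same 8 mice, so they are not independent support. Aldh1l2 also passed the filter on low counts only through its knockout counts. The number of suppressed enzymes went from 4 to 2 with scaling by library size only and with limma on log2(FPKM + 1) or log2(FPKM + 0.1), and to between 0 and 4 with 1 mouse left out. Shmt2 then had log2 fold changes of -0.31, -0.31 and -0.31 (adjusted p = 0.0976, 0.0937 and 0.0944) and Mthfd1 -0.29, -0.29 and -0.29 (adjusted p = 0.109, 0.107 and 0.108) under library size, limma + 1 and limma + 0.1. By their construction these 3 settings leave out the composition factors, which lay between 0.833 and 1.165. Over all genes they gave 3915, 3822 and 3779 higher and 870, 823 and 822 lower, against 1855 and 1777, and over the other pathway genes 13, 12 and 12 higher and 8, 7 and 7 lower, against 4 and 13. DESeq2 gave 20 lower pathway genes, beside 2075 of all 13168 genes, and the mice of the 800s only 25, beside 2129 of 13471. The cause was not tested.

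With each mouse left out in turn, log2 fold changes ran from -1.51 to -0.96 for Aldh1l1, -1.22 to -0.77 for Shmt1, -0.76 to -0.50 for Shmt2, -0.71 to -0.44 for Mthfd1, -0.67 to 0.51 for Phgdh and -0.14 to 0.35 for Mthfd1l. Higher genes ran from 1156 to 2232, lower genes from 953 to 2370, and lower pathway genes from 6 to 23. The ratios ran from 2.77 to 3.58 for Aldh1l2 to Aldh1l1, 1.81 to 2.39 for Mthfd2 to Mthfd1 and 0.55 to 0.83 for Mthfd1l to Mthfd1, and the first was 2.03 from FPKM + 0.1. With a mouse left out, 3 mice against 4 cannot pass after adjustment (adjusted p of 0.0571 to 0.0762, exact permutation). Phgdh, never called, had -0.22 with the replicate block and -0.031 with the series of mouse numbers, and Mthfd1l had -0.22 in the 800s only.

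Same-numbered mice did not deviate together as a set (r = 0.101, -0.131, -0.101 and -0.0703), so the numbers showed no pairing of mice. The paper describes the controls as littermates, and the labels do not say which mice share a litter. Pairing by litter could therefore not be tested with these numbers or with the replicate block. The replicate block left the calls of the enzymes in place (4 lower) and took calls over all genes from 3632 to 2975. As differences within number, the ratios of 0.69, 2.13 and 3.10 had p = 0.125, the smallest that 4 pairs allow (exact permutation of signs).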
